A study of Mus musculus with 14 samples.

Results

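The tumor necrosis factor (TNF) superfamily comprises secreted or membrane-bound ligands and the receptors they engage. Receptors with a death domain can start apoptosis or necroptosis, whereas most others recruit TRAF adaptor proteins and activate NF-kB. In the gut, the family is best known for TNF itself, a target of antibody therapy in inflammatory bowel disease, and for the lymphotoxins, which organise mucosal lymphoid follicles. Members were all genes on the array with a symbol starting with Tnfsf or Tnfrsf, apart from 2 genes not reported here, together with Tnf, Lta, Ltb, Ltbr, Fas, Fasl, Cd40, Cd40lg, Cd27 and Cd70. This gave 39 members, 17 ligands and 22 receptors, of 19096 named genes, each read by its probe with the highest mean signal.

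The 14 samples were whole colon RNA of female C57BL/6 mice on chow, aged 4 to 6 months, with 1 array per sample. In Flox mice both copies of Nr3c1, which encodes the glucocorticoid receptor (GR), are floxed and there is no Cre, and GR iKO mice add a Villin-cre transgene, whose promoter is active in the intestinal epithelium and not in immune or stromal cells. Mice drank regular water (4 Flox and 4 GR iKO samples) or, for 7 days, 2.5% dextran sulfate sodium (DSS), a polymer toxic to the epithelium that is used to model colitis (3 samples of each genotype). Each level is the log2 of a probe's processed intensity over its array's 75th percentile, and changes are relative to the other transcripts of the same array. Differences were tested with limma, with separate precision for DSS and water arrays, and a member was called at a Benjamini-Hochberg adjusted p under 0.05 over all 29523 tested probes.

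As a check of the labels, the Nr3c1 level ranged from 0.99 to 1.30 on the Flox water arrays and from 0.11 to 0.50 on the GR iKO water arrays, a mean of 57.2% of Flox (exact permutation p = 0.0286, two-sided, n = 4). On DSS, GR iKO arrays read 0.24 to 0.35 and Flox arrays 0.97 to 1.36, 55.4% of Flox (exact permutation p = 0.1, the smallest that 3 against 3 allow), although the sign turned when arrays were scaled to spike-in controls (log2 difference 0.28). Dimmer Nr3c1 probes gave 47.6% to 55.6% of Flox on water and 54.6% to 74.8% on DSS. Their exact permutation p was 0.143 for the probe at 55.6% on water, and 0.4 for the probe at 74.8% on DSS. The spread was larger on DSS. Its median SD over probes was 0.26 and 0.34 for Flox and GR iKO, against 0.18 and 0.17 on water. The 75th percentile relative to the spike-in spots lay between -0.10 and 0.42 on the log2 scale on water arrays, between -2.53 and -1.24 on Flox DSS arrays and between -1.32 and -0.18 on GR iKO DSS arrays. The colon's epithelial markers (Epcam, Vil1 and 5 others) had mean levels of 4.58 or more on all 14 arrays. All 3 Flox DSS arrays lay below the Flox water range of 5.11 to 5.33. The GR iKO arrays read 5.21 to 5.37 on water and 4.83 to 5.57 on DSS.

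Of the 39 members, 34 passed the filter of being well above background on at least 3 arrays. Among these, Fasl and Tnfsf8 passed through DSS arrays alone, so the filter could admit them only if they were high on DSS. Tnfrsf26, a receptor related to the TRAIL decoys, was well above background on 2 arrays. The ligands Tnfsf12 (TWEAK), Cd40lg, Tnfsf4 (OX40 ligand) and Tnfsf18 (GITR ligand) were well above background on 0 arrays, so no change is given for these 5 members. The probe for Tnfsfm13, a readthrough transcript of Tnfsf12 and Tnfsf13, may share sequence with both genes, and Tnfsf13 (APRIL) had no matched probe of its own.

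DSS was accompanied by higher relative levels of Tnf and its receptors and of the costimulatory members Cd40, Tnfsf9 and Tnfrsf9 in both genotypes. Relative levels of Tnfrsf11a (RANK), Tnfsfm13 and Tnfrsf13b, a receptor of B and plasma cells, were lower in both. The Tnfrsf13b falls were not called with normexp background correction. In Flox colon 12 of the 34 tested members (35.3%) rose and 7 (20.6%) fell on the 75th-percentile scale, against 21.2% and 27.2% of all tested probes, whereas 0 rose and 20 fell when arrays were scaled to spike-in controls. In GR iKO colon 17 members (50%) rose and 3 (8.82%) fell, against 17.8% and 22% of all tested probes, whereas 5 rose and 4 fell with spike-in scaling. With that scaling the median change of all probes on DSS was -2.20 in Flox and -0.88 in GR iKO, so all changes below are relative to the typical transcript. Spike-in scaling called 82.5% of all probes in Flox and 38.8% in GR iKO, in either direction. With normexp background correction the split was 18 and 5 in Flox and 18 and 2 in GR iKO. That correction called 46.7% and 31.8% of all probes, in either direction, and moved their median change to 0.19 and 0.09. The median change of the tested members was 0.36 in Flox and 0.92 in GR iKO on the log2 scale. That of all tested probes was -0.12 and -0.07 on the 75th-percentile scale. On that scale the rises include Tnfsf8 in both genotypes and Fasl in GR iKO, which passed the filter through DSS arrays alone.

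The 2 DSS comparisons use different arrays. Of the 34 tested members, 12 rose in both genotypes, 3 fell in both, 0 were called in opposite directions, 4 were called in Flox only, 5 in GR iKO only and 10 in neither, and a call in 1 genotype is no test of a difference from the other. Of all probes, 48.4% were called in Flox and 39.8% in GR iKO. The share of all probes called in both was not computed, so the sharing is not read as a trait of the members. The Flox count of 19 was 8 without Flox DSS replicate 1 and 10 without Flox DSS replicate 2, and the share of all probes called fell as well, from 48.4% to 32.2% and 34.3%, whereas the GR iKO count lay between 16 and 21 whichever array was left out.

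**Figure D1:**
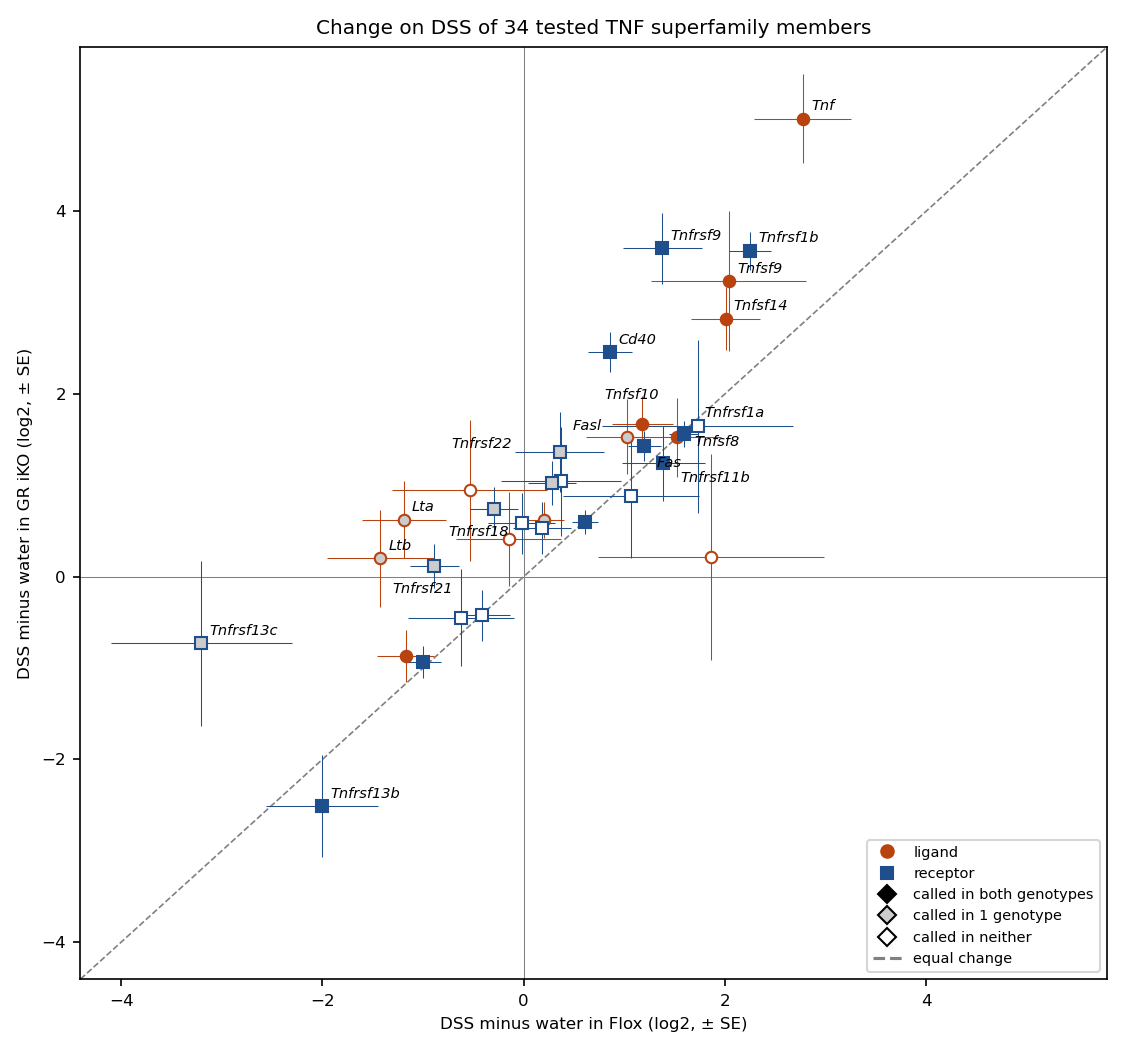
Change on DSS of the 34 tested members, as DSS minus water on the log2 scale (75th-percentile scaling), in Flox (horizontal) and GR iKO (vertical), with standard errors; circles are ligands and squares receptors, filled where called in both genotypes, grey in 1 and open in neither. Tnf lies highest at 2.77 and 5.01, and Tnfrsf13c farthest left at -3.20; with spike-in scaling the median of all probes lies at -2.20 and -0.88, and 0 members were called higher in Flox.

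Tnf, the founding cytokine of the family and a product of activated macrophages and T cells, had the largest rise of any member. Its level was -3.61, -3.74, -4.24 and -3.94 on the Flox water arrays (replicates 1 to 4) and 0.12, -1.96 and -1.48 on the Flox DSS arrays (replicates 1, 2 and 4). The GR iKO arrays read -3.76, -3.05, -4.37 and -4.02 on water and 0.77, 1.08 and 1.78 on DSS (replicates 1, 3 and 4). The DSS arrays lay above all water arrays in both genotypes, and all 3 GR iKO DSS arrays lay above all 3 Flox DSS arrays. The change was 2.77 ± 0.48 (SE) in Flox, a 6.83-fold rise (limma adjusted p = 0.00062), and 5.01 ± 0.48 in GR iKO, a 32.3-fold rise (adjusted p = 2.1e-05), and in Flox it was 0.69 and not called with spike-in scaling.

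Both TNF receptors rose. Tnfrsf1a, the broadly expressed death domain receptor TNFR1, read 2.55, 2.79, 2.71 and 2.75 on Flox water and 4.51, 4.34 and 4.02 on Flox DSS. Its GR iKO levels were 2.65, 2.84, 2.77 and 2.91 on water and 4.49, 4.33 and 4.25 on DSS. The groups did not overlap and the change was about the same size in both genotypes, 1.59 ± 0.14 in Flox and 1.56 ± 0.14 in GR iKO (limma adjusted p = 8.6e-06 and 1.6e-05), with a difference between the changes of -0.03 (95% interval -0.47 to 0.42). Tnfrsf1b, the TNFR2 of leukocytes and endothelium, read -1.02, -1.12, -1.23 and -1.30 on Flox water and 1.57, 0.91 and 0.76 on Flox DSS. In GR iKO it read -1.16, -1.03, -1.40 and -1.34 on water and 2.74, 2.15 and 2.13 on DSS, so the GR iKO DSS arrays were the highest of all 14. It rose 4.76-fold in Flox and 11.9-fold in GR iKO (limma adjusted p = 9.6e-06 and 8.9e-07), but a second Tnfrsf1b probe changed by 0.31 (adjusted p = 0.468) and 0.88 (adjusted p = 0.0485), so the probes disagree on the size.

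The lymphotoxin branch behaved unevenly. Tnfsf14 (LIGHT), a ligand of both the lymphotoxin beta receptor and Tnfrsf14, read -3.45, -3.73, -2.99 and -2.84 on Flox water and -1.06, -0.81 and -1.86 on Flox DSS. The GR iKO arrays read -3.66, -3.51, -3.45 and -3.39 on water and 0.11, -1.07 and -1.07 on DSS. All 6 DSS arrays lay above all 8 water arrays, and the change was 2.01 ± 0.35 in Flox and 2.82 ± 0.35 in GR iKO (limma adjusted p = 0.00056 and 9.2e-05). Ltbr, the receptor of lymphotoxin and LIGHT on stromal and epithelial cells, rose by 0.61 ± 0.13 and 0.60 ± 0.13 in Flox and GR iKO (adjusted p = 0.0023 and 0.0033). Tnfrsf14 (HVEM) changed by 0.18 ± 0.29 and 0.53 ± 0.29 and was not called.

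Lta and Ltb, the subunits of lymphotoxin, fell in Flox and were not called in GR iKO. Lta read -3.79, -3.75, -3.61 and -3.29 on Flox water and -5.15, -5.44 and -3.82 on Flox DSS. Its GR iKO levels were -3.47, -3.71, -3.83 and -4.26 on water and -3.08, -2.29 and -4.21 on DSS. Flox DSS replicate 4 and GR iKO DSS replicate 4 lay near the water range while the other DSS arrays lay below it in Flox and above it in GR iKO. The change of Lta was -1.19 ± 0.42 in Flox (limma adjusted p = 0.0323) and 0.62 ± 0.42 in GR iKO (adjusted p = 0.259), and the Flox call was lost without Flox DSS replicate 1 or 2 or Flox water replicate 4 (adjusted p = 0.158, 0.196 and 0.0564) and with slide as a block (0.0608), and its sign turned with normexp correction. Ltb changed by -1.42 ± 0.53 in Flox (adjusted p = 0.0423, and 0.0534 with 1 spread shared by all arrays) and by 0.20 ± 0.53 in GR iKO (adjusted p = 0.792).

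Among the death receptors and their ligands, 2 of 9 tested members rose in Flox and 4 in GR iKO, and 1 fell in Flox. The shares of all probes were 21.2% and 17.8% called higher, and 27.2% and 22% called lower. Fas, which triggers apoptosis in lymphocytes and epithelium, read 0.58, 0.37, 0.58 and 0.57 on Flox water and 1.98, 1.74 and 1.44 on Flox DSS. In GR iKO it read 0.36, 0.67, 0.72 and 0.61 on water and 2.20, 1.83 and 2.02 on DSS. Every DSS array exceeded every water array, with changes of 1.20 ± 0.16 and 1.43 ± 0.16 (limma adjusted p = 0.00011 and 5.8e-05), and a second Fas probe gave 1.26 and 1.61. With spike-in scaling Fas was instead called lower in Flox (-0.88, limma adjusted p = 0.04). Tnfsf10 (TRAIL) read -4.06, -3.66, -3.91 and -3.21 on Flox water and -2.44, -2.43 and -2.72 on Flox DSS. The GR iKO arrays read -3.66, -3.53, -3.76 and -3.46 on water and -2.60, -1.91 and -1.28 on DSS, again without overlap. It rose by 1.18 ± 0.30 in Flox and by 1.67 ± 0.30 in GR iKO (limma adjusted p = 0.0068 and 0.0011).

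Fasl, the Fas ligand of cytotoxic lymphocytes, was near background. It passed the filter through DSS arrays alone, so its calls are not independent support for a rise. It read -7.35, -7.64, -7.26 and -6.19 on Flox water and -6.37, -5.55 and -6.34 on Flox DSS, with 1 Flox DSS array well above background. Its GR iKO levels were -6.97, -7.18, -7.33 and -7.15 on water and -5.59, -5.84 and -5.45 on DSS, with 2 DSS arrays well above background. It was at least 1.23-fold higher on DSS in GR iKO (limma adjusted p = 0.0106), where the floor is the lowest signal well above background on each array, and the call was lost without GR iKO DSS replicate 4 (adjusted p = 0.0549). In Flox it was not called (adjusted p = 0.0555), but it was under 5 of 25 alternatives, among them 1 shared spread (0.0124), slide as a block (0.0452) and leaving out Flox water replicate 4 (0.00059).

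Tnfrsf21 (DR6), a death domain receptor that restrains lymphocyte responses, went the other way in Flox. It read 0.94, 0.94, 0.97 and 0.63 on Flox water and -0.15, -0.23 and 0.33 on Flox DSS. In GR iKO it read 0.80, 0.81, 0.97 and 0.83 on water and 0.67, 1.77 and 0.46 on DSS, where replicate 3 stood above the others. The change was -0.89 ± 0.24 in Flox (limma adjusted p = 0.009; 0.0569 and 0.0613 without Flox DSS replicate 1 or 2) and 0.11 ± 0.24 in GR iKO (adjusted p = 0.738), and a second probe gave -1.03 and 0.11.

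Of the remaining death receptor members, the decoy Tnfrsf22 rose in GR iKO by 1.36 ± 0.44 (limma adjusted p = 0.027), and changed by 0.36 ± 0.44 in Flox, not called, with a difference between these changes of 1.00 (adjusted p = 0.485). The decoy Tnfrsf23 was well above background on 5 arrays and changed by 1.73 ± 0.95 and 1.65 ± 0.95, not called. The TRAIL receptor Tnfrsf10b changed by -0.02 and 0.58, not called, while a dimmer probe of the same gene rose by 1.22 in GR iKO (adjusted p = 0.0046). Tnfsf15 (TL1A) and its receptor Tnfrsf25 (DR3), a pair linked to inflammatory bowel disease by genetics, changed by -0.15 and 0.41 and by -0.41 and -0.42 and were not called, and Tnfsf15 was well above background on 5 of the 14 arrays. A dimmer Tnfrsf25 probe fell in Flox by 1.02 (adjusted p = 0.0344).

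In the RANK axis the receptor fell and the decoy rose. Tnfrsf11a (RANK), which in the gut serves M cell development, fell by 1.00 in Flox and by 0.93 in GR iKO, each ± 0.17 (limma adjusted p = 0.00056 and 0.0012). Tnfrsf11b, the secreted decoy osteoprotegerin that binds RANK ligand and TRAIL, read -2.49, -2.08, -2.51 and -3.08 on Flox water and -0.95, -1.08 and -1.43 on Flox DSS. The GR iKO arrays read -2.17, -1.86, -2.59 and -2.85 on water and -0.65, -0.77 and -1.96 on DSS, where replicate 4 fell within the water range. Its change was 1.39 ± 0.41 in Flox and 1.24 ± 0.41 in GR iKO (limma adjusted p = 0.0147 and 0.0301). Neither call was stable: the Flox call was lost without Flox DSS replicate 1 or 2, and the GR iKO call without any 1 of GR iKO DSS replicates 1 and 3, GR iKO water replicate 4 and the same Flox DSS arrays (adjusted p from 0.0501 to 0.122). Tnfsf11 (RANK ligand) was well above background on 3 arrays and changed by -0.53 and 0.95, and the TWEAK receptor Tnfrsf12a changed by 0.37 and 1.04, none of them called.

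The costimulatory members sustain T and B lymphocyte and antigen-presenting cell responses. They gave 4 rises of 9 tested in Flox and 6 in GR iKO, and 0 falls. Of all probes, 21.2% and 17.8% were called higher and 27.2% and 22% lower. Cd40, expressed by B cells, macrophages and dendritic cells, read -3.17, -3.00, -3.00 and -2.75 on Flox water and -1.84, -2.35 and -2.19 on Flox DSS. Its GR iKO levels were -3.04, -2.95, -3.38 and -3.45 on water and -0.48, -1.01 and -0.75 on DSS. The levels formed 3 separate tiers: water arrays of both genotypes, Flox DSS arrays and GR iKO DSS arrays. Cd40 rose by 0.86 ± 0.22 in Flox and by 2.46 ± 0.22 in GR iKO (limma adjusted p = 0.0065 and 1.3e-05), and the Flox call was lost without Flox DSS replicate 1 (adjusted p = 0.0704). With spike-in scaling Cd40 was instead called lower in Flox (-1.22, limma adjusted p = 0.014).

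Tnfrsf9 (CD137), an activation receptor of T cells and other leukocytes, read -6.28, -5.77, -6.32 and -5.67 on Flox water and -4.58, -4.57 and -4.75 on Flox DSS. In GR iKO it read -6.33, -5.60, -6.35 and -6.57 on water and -1.75, -3.39 and -2.71 on DSS. The same tiers appeared, with 0 GR iKO water arrays and all 3 GR iKO DSS arrays well above background. It was 2.60-fold higher in Flox, with 1 of 4 water and 2 of 3 DSS arrays well above background (limma adjusted p = 0.0114; 0.0632 and 0.0587 without Flox DSS replicate 1 or 2), and at least 9.69-fold higher in GR iKO (adjusted p = 4.2e-05). Its ligand Tnfsf9 read -6.18, -5.90, -7.77 and -7.18 on Flox water and -4.47, -4.55 and -5.14 on Flox DSS. In GR iKO the ligand read -6.41, -6.72, -8.27 and -6.19 on water and -3.27, -4.33 and -3.40 on DSS. It was well above background on 2 of 4 Flox water and 2 of 3 Flox DSS arrays, and on 0 GR iKO water and all 3 GR iKO DSS arrays. The size of its Flox rise thus rests in part on arrays near background. Receptor and ligand thus rose in the same comparisons, the ligand by 4.10-fold in Flox (limma adjusted p = 0.0442, lost in 10 of 25 alternatives, among them leaving out any 1 Flox DSS array, and turned in sign with spike-in scaling) and by at least 4.78-fold in GR iKO (adjusted p = 0.0056).

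The promoters of the members were searched for the NF-kB consensus GGGRNWYYCC. Here R is A or G, N is any base, W is A or T and Y is C or T. RefSeq (GRCm38.p6) gave promoters for 29 of the 39 members. The consensus was found, on either strand of the 250 bases before a start, in 3 of these 29 members (10.3%) and in 4.46% of all 27025 genes. These 3 are shown because they are the member promoters that hold the consensus, which is in capitals. Tnfrsf9 has 2 annotated starts, and 3 overlapping matches on both strands lie 33 to 43 bases before the downstream one (chr4:150927749-150927998, plus strand). Ltb has 1 match 78 to 87 bases before its start (chr17:35194257-35194506, plus strand), and Tnfrsf8 has 1 match 159 to 168 bases before its start (chr4:145315165-145315414, minus strand).
Tnfrsf9: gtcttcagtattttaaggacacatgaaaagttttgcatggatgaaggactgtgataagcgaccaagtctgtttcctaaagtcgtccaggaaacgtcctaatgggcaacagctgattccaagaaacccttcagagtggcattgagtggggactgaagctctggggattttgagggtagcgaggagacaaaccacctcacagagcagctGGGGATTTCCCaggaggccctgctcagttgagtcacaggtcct
Ltb: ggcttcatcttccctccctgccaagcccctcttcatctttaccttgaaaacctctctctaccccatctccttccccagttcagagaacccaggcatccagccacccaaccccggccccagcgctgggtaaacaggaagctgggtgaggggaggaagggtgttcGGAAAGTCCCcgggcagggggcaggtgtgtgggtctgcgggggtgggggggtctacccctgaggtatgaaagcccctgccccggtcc
Tnfrsf8: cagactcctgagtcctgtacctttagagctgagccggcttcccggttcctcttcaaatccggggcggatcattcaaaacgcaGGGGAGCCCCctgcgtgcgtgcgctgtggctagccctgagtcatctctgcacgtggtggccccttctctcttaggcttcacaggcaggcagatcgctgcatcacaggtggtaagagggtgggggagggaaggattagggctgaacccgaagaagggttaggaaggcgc
The palindromic core of the glucocorticoid response element, ACANNNTGT, was found in 0 of the 29 members and in 6.76% of all genes. A match is a description of the sequence, and the absence of one says only that these letters are not in this window.

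Tnfrsf8 (CD30), whose promoter is printed above, was well above background on 3 arrays and changed by 1.07 ± 0.68 and 0.89 ± 0.68, not called. Its ligand Tnfsf8 read -7.66, -6.35, -6.34 and -6.13 on Flox water and -4.86, -5.00 and -5.43 on Flox DSS. The GR iKO arrays read -6.74, -6.73, -6.69 and -6.65 on water and -4.93, -4.97 and -5.62 on DSS. The ligand was well above background on 0 water arrays and on 2 DSS arrays of each genotype. It thus passed the filter through DSS arrays alone, and its calls are not independent support for a rise. Tnfsf8 was at least 1.98-fold higher on DSS in Flox and at least 1.68-fold in GR iKO. The limma adjusted p was 0.0119 and 0.0147, over 0.05 without Flox DSS replicate 1 or 2 and without GR iKO DSS replicate 1.

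Tnfrsf18 (GITR) and Tnfrsf4 (OX40), receptors of regulatory and activated T cells, were called higher in GR iKO and not in Flox, and the differences between their changes were not called (adjusted p = 0.201 and 0.332). Tnfrsf18 read -0.17, 0.28, 0.04 and 0.01 on Flox water and -0.64, -0.28 and 0.15 on Flox DSS. Its GR iKO levels were -0.04, 0.15, 0.01 and -0.11 on water and 1.43, 0.51 and 0.30 on DSS, with replicate 1 the highest. The GR iKO change was 0.74 ± 0.24 (limma adjusted p = 0.0269) and was 0.40 (adjusted p = 0.183) without that array, and the Flox change was -0.29 ± 0.24. Tnfrsf4 changed by 1.03 ± 0.24 in GR iKO (adjusted p = 0.0051) and by 0.28 ± 0.24 in Flox. Cd27 and its ligand Cd70 were not called: Cd27 changed by -0.62 and -0.45, and Cd70, well above background on 5 arrays, by 1.86 ± 1.12 and 0.22 ± 1.12.

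**Figure D2:**
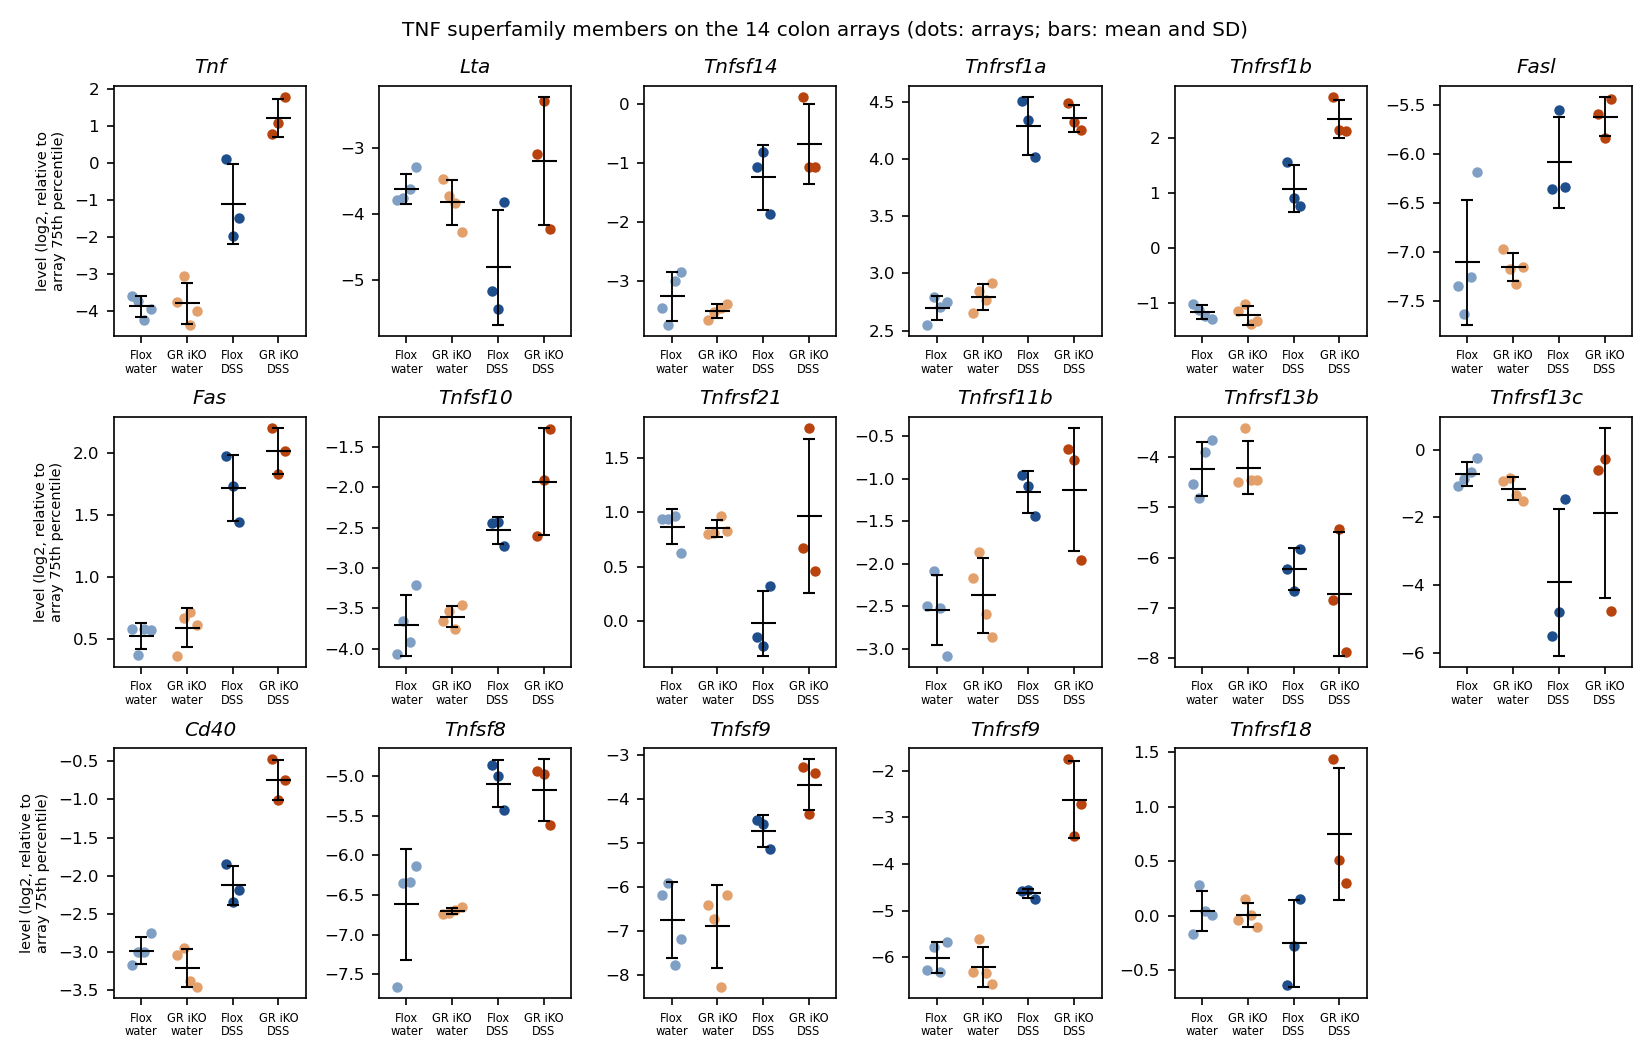
Level of 17 members on each array (log2 intensity relative to the array's 75th percentile; each panel has its own scale), with dots for arrays and bars for the mean and SD of each group. Tnf, Tnfrsf1b, Cd40 and Tnfrsf9 form 3 tiers, water, Flox DSS and GR iKO DSS, while Tnfrsf13c and Lta are split within the DSS groups; with spike-in scaling the Flox DSS dots of Cd40 and Tnfrsf9 would lie on average below the water dots, at -1.22 and -0.70 from them.

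Tnfrsf13c and Tnfrsf13b, receptors of the B cell survival factor BAFF, fell in Flox, and Tnfrsf13b also fell in GR iKO. Tnfrsf13c, the BAFF receptor of mature B cells, read -1.08, -0.86, -0.66 and -0.26 on Flox water and -5.50, -4.79 and -1.46 on Flox DSS. In GR iKO it read -0.91, -0.83, -1.34 and -1.52 on water and -0.61, -0.27 and -4.76 on DSS. Flox DSS replicates 1 and 2 and GR iKO DSS replicate 4 were thus far below the other 11 arrays. The change was -3.20 ± 0.90 in Flox (limma adjusted p = 0.0112; 0.0947 and 0.0701 without Flox DSS replicate 1 or 2) and -0.73 ± 0.90 in GR iKO (adjusted p = 0.553).

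Tnfrsf13b (TACI), the receptor for BAFF and APRIL on B and plasma cells, read -4.54, -4.81, -3.90 and -3.66 on Flox water and -6.22, -6.66 and -5.82 on Flox DSS. The GR iKO arrays read -4.50, -3.43, -4.46 and -4.45 on water and -6.84, -5.44 and -7.89 on DSS, so that all 6 DSS arrays lay below all 8 water arrays. It was well above background on all water arrays, on 0 Flox DSS arrays and on 1 GR iKO DSS array. It was at least 2.40-fold lower on DSS in Flox (limma adjusted p = 0.0104; 0.0537 and 0.0713 without Flox DSS replicate 1 or 2) and changed by -2.51 ± 0.56 in GR iKO (adjusted p = 0.0037), and with normexp correction the changes were 0.03 and -0.30 and not called. BAFF itself, Tnfsf13b, rose by 0.62 ± 0.20 in GR iKO (adjusted p = 0.0266) and changed by 0.20 ± 0.20 in Flox. Tnfsfm13 changed by -1.17 ± 0.28 and -0.87 ± 0.28 (adjusted p = 0.0049 and 0.0289).

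The levels of B cell markers split on the same DSS arrays as those of Tnfrsf13c, and not as those of Tnfrsf13b. Relative to the mean of the Flox water arrays, the mean of 4 B cell markers (Ms4a1, Cd79a, Cd79b and Blk) was -3.57, -2.45 and -0.46 on Flox DSS replicates 1, 2 and 4 and 0.34, 0.38 and -3.19 on GR iKO DSS replicates 1, 3 and 4. On the same arrays Ltb stood at -2.20, -1.48 and -0.59 and at 0.69, 0.88 and -1.92. The 3 arrays lowest in B cell markers were also the 3 lowest in Ltb and Tnfrsf13c. Of the 4 B cell markers 3 fell in Flox and 0 in GR iKO, and 2 of 4 plasma cell markers fell in each genotype. The share of all probes called lower was 27.2% in Flox and 22% in GR iKO. The mean level of 5 lymphoid follicle markers (Cr2, Fcer2a, Cxcl13, Ccl19 and Ccl21a) split on the same arrays, at -1.85, -1.86 and 0.17 on Flox DSS and 1.03, 1.30 and -1.80 on GR iKO DSS, against -0.77 to 0.23 on water. Of these 5, Cr2, Fcer2a and Cxcl13 fell and Ccl19 and Ccl21a rose in Flox, and Ccl19 and Ccl21a rose in GR iKO. The part of B cell and follicle content in the values of Tnfrsf13c, Ltb and Lta was not tested, and fewer cells of a type and less RNA per cell cannot be told apart in whole tissue.

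**Figure D3:**
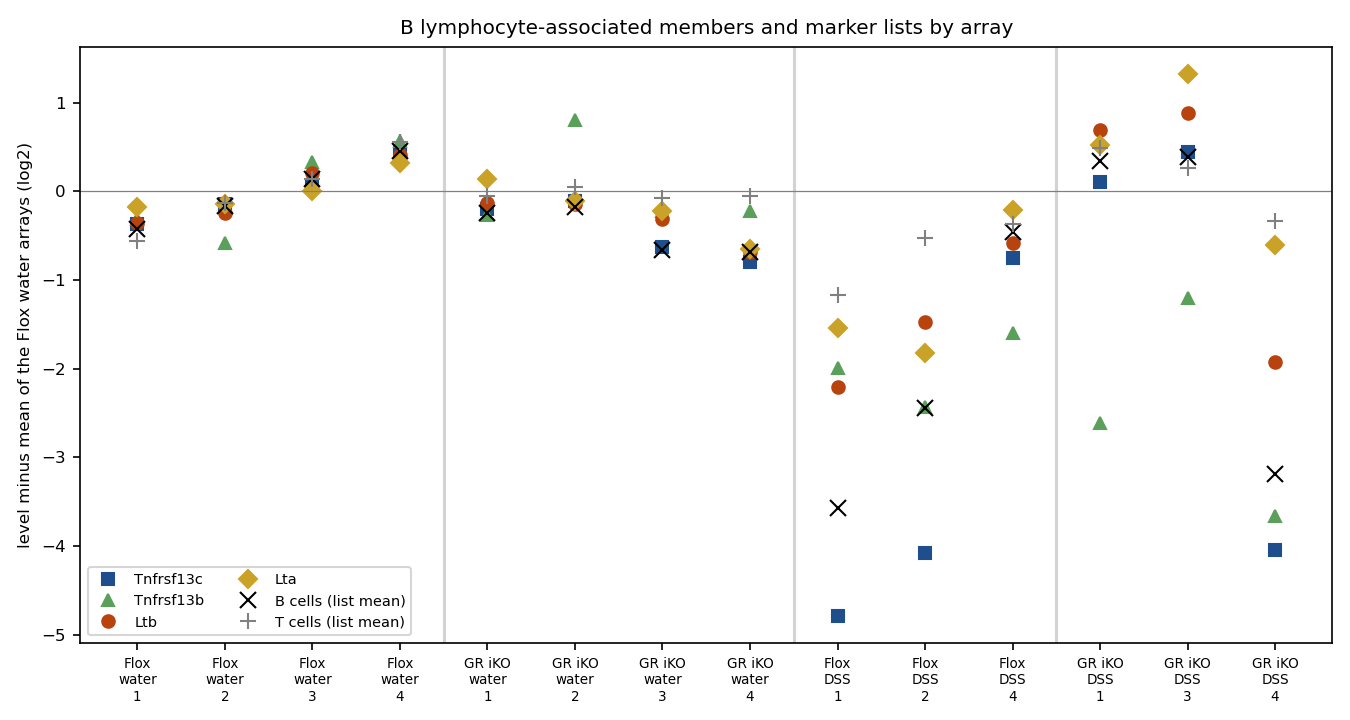
Levels of Tnfrsf13c, Tnfrsf13b, Ltb and Lta and the mean levels of the B cell and T cell marker lists on each array, as the log2 difference from the mean of the 4 Flox water arrays (75th-percentile scaling). Flox DSS replicates 1 and 2 and GR iKO DSS replicate 4 are low in Tnfrsf13c, Ltb and B cell markers, and Flox DSS replicate 4 and GR iKO DSS replicates 1 and 3 lie nearer to water, whereas Tnfrsf13b is below 0 on all 6 DSS arrays.

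Markers of neutrophils and of macrophages and monocytes rose in both genotypes, and so did those of fibroblasts. All 5 neutrophil markers on the array rose in both genotypes, with a list mean between -6.71 and -5.52 on water, between -0.92 and 0.18 on Flox DSS and between 0.66 and 2.64 on GR iKO DSS. Macrophage and monocyte markers rose for 6 of 8 in Flox and 7 of 8 in GR iKO, with list means from 1.62 to 2.25 and from 1.71 to 2.48 on DSS. Their part in the rises of Tnf, Tnfrsf1b, Cd40 and Tnfrsf9 was not tested. Of 5 dendritic cell markers 0 were called in Flox and 2 rose in GR iKO. T cell markers gave 1 fall of 7 in Flox and 0 calls in GR iKO. Smooth muscle markers rose for 4 of 4 in Flox and 0 of 4 in GR iKO. Fibroblast markers rose for 4 of 4 in Flox and 3 of 4 in GR iKO. Endothelial markers rose for 2 of 4 and 1 of 4. Of 3 tested skeletal muscle markers 2 rose in Flox and 0 in GR iKO. Of 7 epithelial markers 0 rose and 3 fell in Flox, with a median change of -0.29. In GR iKO 1 epithelial marker rose and 1 fell, with a median change of 0.047. These marker counts stand beside 21.2% of all probes called higher and 27.2% lower in Flox, and 17.8% and 22% in GR iKO.

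The pathway downstream of the receptors was counted in the same comparisons. Of 37 genes of the signalling machinery (TRAF adaptors, death domain adaptors, ubiquitin and NF-kB regulators), 11 rose and 5 fell in Flox, and 20 rose and 1 fell in GR iKO, with median changes of 0.06 and 0.39. Of all tested probes, 21.2% were called higher and 27.2% lower in Flox, and 17.8% and 22% in GR iKO. The largest changes in Flox were rises of Nfkb2 (1.33), an NF-kB subunit of the noncanonical route, the necroptosis kinase Ripk3 (1.25), the NF-kB inhibitor Nfkbia (1.10) and the caspase-8 inhibitor Cflar (1.07). In GR iKO they were rises of Ripk3 (2.68), Nfkbia (2.05), the ubiquitin-editing inhibitor Tnfaip3 (1.66) and the necroptosis effector Mlkl (1.61). Casp8, the initiator caspase of death receptors, was singled out after its values were seen because it was called in both directions: it fell in Flox (-0.51, limma adjusted p = 0.0388) and rose in GR iKO (0.66, adjusted p = 0.0137).

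Of 11 tested genes known to be induced by TNF, 7 rose and 1 fell in Flox and 9 rose in GR iKO, with median changes of 1.79 and 2.40. The share of all probes called higher was 21.2% in Flox and 17.8% in GR iKO, and 27.2% and 22% were called lower. In Flox the rises of these genes were led by the chemokines Cxcl1 (4.89) and Cxcl10 (4.11) and by Tnfaip6 (2.27), while the chemokine Ccl20 fell (-2.12). In GR iKO the largest were Cxcl1 (6.51), Cxcl10 (6.34), the prostaglandin synthase Ptgs2 (4.17) and Tnfaip2 (3.57). Among the genes for shedding of TNF and its receptors, Rhbdf2, a partner of the protease Adam17, rose by 0.41 in Flox and by 1.36 in GR iKO, and Adam17 itself fell in Flox by 0.31. Of 4 tested family members with other names, Eda rose by 2.85 and 1.96, Ngfr by 1.76 and 1.06 and Relt by 1.22 in GR iKO. Of these pathway genes 0 were called in a genotype comparison.

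On water, no member was called between GR iKO and Flox: limma called 0 of 34 (background 0.0237% of probes) and 0 with 1 shared spread (background 0.00339%), and 1 had an unadjusted p under 0.05 (background 3.28%). That member was the decoy receptor Tnfrsf23 (1.29 ± 0.57, unadjusted p = 0.0427), well above background on 0 Flox and 1 GR iKO water arrays. The median difference of the members was -0.02. For Tnf the difference was 0.08 ± 0.29, and for Tnfrsf1a 0.09 ± 0.09.

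On DSS, GR iKO arrays read higher than Flox arrays for most members, but no member was called. The difference was positive for 29 of 34 tested members, with a median of 0.59 on the log2 scale against 0.01 for all tested probes. By limma with separate precision for DSS arrays, 0 members were called (background 0.0135% of probes), and 8 had an unadjusted p under 0.05, against 17.8% of all probes. With 1 spread shared by all 14 arrays, 7 members were called higher and 0 lower, against 5.94% and 7.18% of all probes, whereas a fit on the 6 DSS arrays alone called 0. For 8 members the groups did not overlap with GR iKO higher, and for 0 with GR iKO lower, against 10.4% and 12.4% of probes. Array quality weights also called 7, and 15.4% of all probes. Leaving out GR iKO DSS replicate 3 called Tnfrsf1b, Cd40 and Tnfrsf9 and 2.64% of all probes, and leaving out Flox DSS replicate 4 called Cd40 and 2.81% of all probes. Median differences of cell type markers, GR iKO against Flox on DSS, were 2.03 for neutrophils, 1.52 for B cells and 1.51 for lymphoid follicles. T cells gave 0.96, plasma cells 0.81, epithelium 0.55 and dendritic cells 0.33 on the log2 scale. Macrophages and monocytes gave 0.15, endothelium -0.07, the 1 tested NK cell marker -0.27 and fibroblasts -0.30. Skeletal muscle gave -0.92 and smooth muscle -1.36. In these lists 0 markers were called, and their part in the differences of the members was not tested.

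The 7 members called with a shared spread were Tnf, Cd40, Tnfrsf1b, Tnfrsf9, Tnfrsf21, Tnfrsf18 and Lta. Tnf was higher in GR iKO by 2.32 ± 0.62, GR iKO over Flox (limma adjusted p = 0.1, and 0.0126 with a shared spread), and the within-slide differences on the 2 slides that held both DSS groups were 0.97 and 3.26. Cd40 was higher by 1.38 ± 0.28 (adjusted p = 0.0703 and 0.0051 with a shared spread), with within-slide differences of 0.83 and 1.44. Tnfrsf1b was higher by 1.26 ± 0.26 (adjusted p = 0.0738 and 0.0082), 0.58 and 1.37 within slides, but by 0.50 (adjusted p = 0.6) on its second probe. For Tnfrsf9 the difference was 2.01 ± 0.50 (adjusted p = 0.0903 and 0.0086), 1.19 and 2.04 within slides. For these 4 members every GR iKO DSS array lay above every Flox DSS array, so both within-slide differences had to be positive. The slide values therefore add no further support.

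Lta (1.61 ± 0.53, limma adjusted p = 0.154 and 0.0414 with a shared spread) did not keep its sign, at 2.87 on slide 1 and -0.40 on slide 4. Tnfrsf21 (0.99 ± 0.31, adjusted p = 0.136 and 0.0366) gave 1.92 and 0.14, and Tnfrsf18 (1.00 ± 0.31, adjusted p = 0.133 and 0.0307) gave 1.15 and 0.15. Tnfrsf13c showed the widest split, with 5.23 on slide 1 and -3.30 on slide 4. By contrast Tnfrsf1a and Ltbr differed little between genotypes on DSS, by 0.07 (95% interval -0.33 to 0.47) and 0.01 (-0.35 to 0.37).

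**Figure D4:**
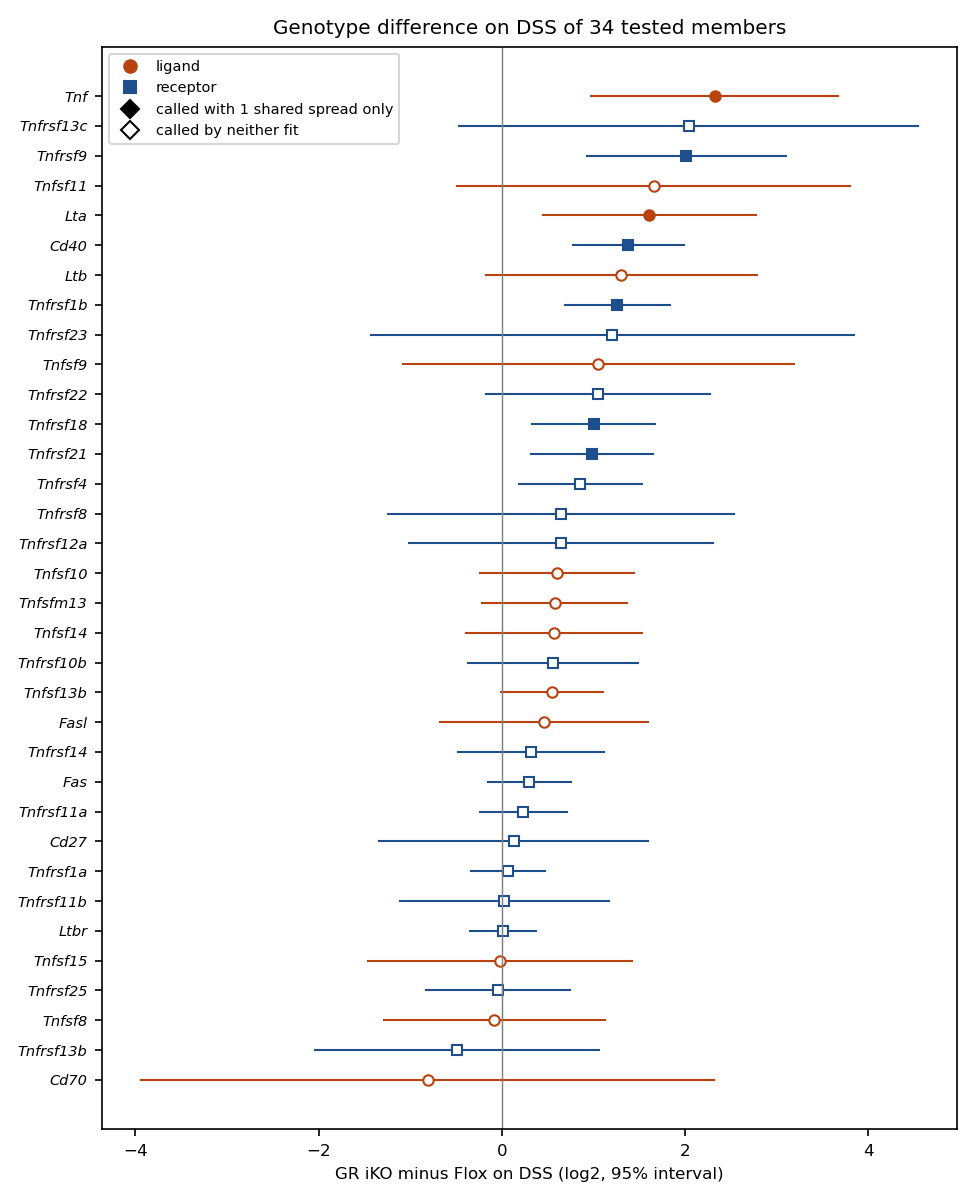
Difference between GR iKO and Flox on DSS for the 34 tested members, on the log2 scale with 95% intervals (75th-percentile scaling; circles ligands, squares receptors), filled where called only with 1 shared spread. The 7 filled members, from Tnf at 2.32 to Tnfrsf21 at 0.99, all lie above 0, and with spike-in scaling the median of all probes is 1.14.

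The difference of the DSS changes between genotypes was tested as an interaction. By limma 0 of 34 members were called (background 0% of probes) and 8 had an unadjusted p under 0.05, against 14.9% of all probes. Cd40 had the smallest p, with a change larger by 1.60 ± 0.31 in GR iKO (95% interval 0.93 to 2.27, adjusted p = 0.11, and 0.0482 with a shared spread, which called 0.125% of probes). Tnf changed by 2.24 ± 0.69 more in GR iKO (adjusted p = 0.184) and Tnfrsf1b by 1.32 ± 0.29 (adjusted p = 0.139), or 0.58 (adjusted p = 0.606) on its second probe. For Tnfrsf9 no size is given, since 0 of 4 GR iKO and 1 of 4 Flox water arrays were well above background. The labels number replicates without naming animals, so p-values measure the spread between these samples, which may be partly technical.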

How the data were processed

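Colon RNA (500 ng) was labelled with Cy3 and hybridised to Agilent 1-colour arrays. The authors extracted spots with Agilent Feature Extraction (12.0.0.7 per the file headers), and the deposited intensity is background-subtracted and not scaled between arrays. The deposited value table, whose normalization is not given in the sources used here, holds log2 values, and every array had the same quartiles; it served as an alternative. The submitters' processing notes also name Partek 6.6.

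From the files, 1639 control spots per array and outlier spots were left out, and repeated probes were averaged, leaving 41174 probes. Symbols were matched through RefSeq accessions (GRCm38.p6). Probes well above background on at least 3 of 14 arrays were tested (29523). limma 3.58.1 (R 4.3.3) fitted 4 group means, with arrays weighted by treatment (water 1.69, DSS 0.498). The method was tested on simulated data. The number of arrays limits the precision. The members and gene lists were chosen with earlier results of these data known. Values on every array are given for members called on DSS with a log2 change of at least 1 and no overlap (at most 14, by mean change) and for members called between genotypes with or without weights; up to 4 called genes are named per pathway list. Other settings tried were normexp (offset 50), quantile and spike-in scaling, the deposited table, no filter, other weights, only the arrays compared, slide and replicate blocks, mean probe and each array left out; those for Nr3c1 were chosen after seeing the data. A listed marker gene is not reported here and enters no list value.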

Additional observations from a re-analysis of the deposited data

Results flagged for a closer look

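In the 34 groups of 4 water arrays formed by the 17 members shown array by array, 5 held a highest or lowest array whose gap to the nearest of the other 3, as a share of the group's range, passed Dixon's 95% critical value, which by its definition about 1 in 20 groups pass by chance. Fas read 0.37 on Flox water replicate 2, below the others by a share of 0.963 of the range. Tnfrsf21 read 0.63 on Flox water replicate 4, the lowest (0.912), and 0.97 on GR iKO water replicate 3, the highest (0.831). Tnfrsf13b read -3.43 on GR iKO water replicate 2, the highest (0.955). Tnfsf8 read -7.66 on Flox water replicate 1, the lowest (0.853), where it was not well above background. Leaving out each of these arrays lost 0 calls of the same member in a DSS comparison.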

How the results depend on the processing

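Of the recomputed values of member differences, 862 kept direction and side of the threshold, 50 lost and 24 gained the call and 13 turned in sign. The DSS rises in GR iKO of Tnf, Tnfsf14, Tnfrsf1b, Cd40 and Tnfrsf9 were called under all 25 alternatives. With spike-in scaling the members called on DSS in GR iKO numbered 9 (38.8% of all probes). Without weights 7 members were called between genotypes on DSS and 1 in the interaction, and with array quality weights 7 and 6 (15.4% and 10.3% of all probes); the 6 DSS arrays alone gave 0 (0% of probes). Leaving out 1 array gave 8 to 19 calls on DSS in Flox, 16 to 21 in GR iKO, 0 between genotypes on water, 0 to 3 on DSS and 0 in the interaction. With the replicate number as a block the counts were 17, 20, 0, 0 and 0, and same-numbered samples did not all deviate together (correlations from -0.08 to 0.31), so the numbers were not taken as pairs; Lta lost its Flox call (-1.16). With slide as a block the counts were the same, and Lta also lost its Flox call (-1.14). Signs turned in Flox on DSS with normexp for Lta (0.0195) and Tnfrsf13b (0.0343), and with spike-in scaling for Tnfsf14 (-0.0726), Tnfrsf1a (-0.49), Fasl (-1.06), Fas (-0.88), Tnfsf10 (-0.90), Tnfrsf11b (-0.69), Cd40 (-1.22), Tnfsf8 (-0.55), Tnfsf9 (-0.0418) and Tnfrsf9 (-0.70). Among these, Fas and Cd40 were called lower in Flox with spike-in scaling (limma adjusted p = 0.04 and 0.014). Spike-in scaling also turned Tnfrsf18 in GR iKO (-0.0675) and Nr3c1 on DSS (0.28). The shift of all probes under that scaling is part of its construction; its origin was not tested. Dim probes (Fasl, Tnfsf8, Tnfsf9, Tnfrsf9, Tnfrsf13b) have only bounds in some groups.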
